A study of Citrus maxima with 6 samples.

Results

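In the orange-pericarp mutant (MT) of 'Guanxi' pummelo, 45 genes fell in graded order over the 3 mutant libraries: each was lower than in any wild-type (WT) library, highest within the mutant in MT3, lower in MT1 and lowest in MT2. They were chosen by their own expression values out of 29406 genes. RPKM is a read count scaled to the length of the gene model and to a read total of the library. All 6 values had to be at least 1 RPKM, with a mean under 500 RPKM. The order lowest WT > MT3 > MT1 > MT2 had to hold. MT3 also had to reach at least 2 times MT2, and the lowest WT value at least 4 times MT2. The limits were met by 48 genes, and 3 of them were dropped by identifier: a pectinesterase 2, an L-3-cyanoalanine synthase 2 and a 1-aminocyclopropane-1-carboxylate synthase. A gene under 1 RPKM in any library could not enter, and 13155 genes met the limits on level. Because the selection used every library, the values of the 45 genes are a description and no test is attached to them. By construction the groups did not overlap for any of the 45 members, all lower in MT. The same held for 5.36% of the 16719 genes with a mean of at least 0.3 RPKM, and nothing is read from that difference.

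The libraries came from ripe pericarp of untreated fruit, the peel of the citrus fruit, with 3 libraries of the WT cultivar and 3 of MT. MT is a single spontaneous bud mutation of this cultivar with an orange instead of a pale yellow peel, and it was multiplied by grafting. The libraries are called biological replicates and pools, and the sources used here do not say that they came from separate trees, so any p-value measures only the spread between these 6 samples. No annotation of the whole gene set was used here, and the tissue could not be checked by marker genes.

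A bud mutation is a somatic change in a shoot meristem, and every branch and fruit that grows from it can carry the change. The peel of a ripening citrus fruit loses chlorophyll, gains carotenoids, loosens its cell walls and stores flavonoids, waxes and oils. Auxin conjugation, sugar and peptide transport, phenylpropanoid synthesis and lipid desaturation are all active in plant tissues of this kind.

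The MT libraries did not resemble each other as closely as the WT libraries did. Across the genes tested, Pearson's r of log2 values was 0.970 to 0.978 within WT and 0.946 to 0.961 within MT, and genes are not independent replicates. MT3 lay nearest to WT (0.964 to 0.968), and MT2 furthest from it (0.900 to 0.920). The libraries were of similar depth, from 9253681 to 11108186 reads behind the RPKM scale. The order of the 3 MT libraries was thus also an order of their distance from WT, and the part of that distance in the graded fall was not tested. Replicate numbers carry no order of their own. In bulk tissue, fewer cells of a type and less RNA per cell cannot be told apart.

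Relative to each gene's WT mean, the median member stood at 66.4% in MT3 (range 14.4% to 92.1%), 32.7% in MT1 (5.14% to 80.7%) and 13.5% in MT2 (2.70% to 23.0%). The median gene tested stood at 111% in MT3, 105% in MT1 and 117% in MT2. Members therefore fell in libraries in which the typical gene had a slightly raised RPKM. On the log2(RPKM + 0.5) scale the median difference, MT minus WT, was −1.63 over members (−3.88 to −0.97) and 0.15 over the genes tested. The ratio of WT to MT means had a median of 2.68 (1.63 to 13.2). Leaving out single MT libraries moved this median to 1.98 without MT2 and to 4.30 without MT3, against 2.59 without MT1.

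**Figure D1:**
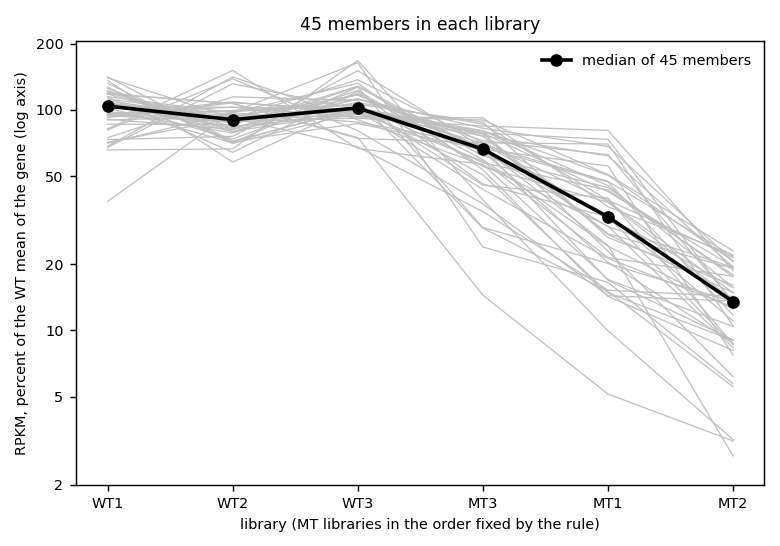
RPKM of each of the 45 members (grey lines) as a percent of its WT mean, on a log axis, in the 3 WT and 3 MT libraries, with the median in black. The median line runs near 100% through WT and reaches 66.4% in MT3, 32.7% in MT1 and 13.5% in MT2.

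Names were at hand for 16 members, as protein matches in the study's list of differentially expressed genes. That list was drawn from these same libraries, so membership in it is not independent evidence, and 6 further members stood in it without a name. The remaining 23 members are known here only by their sweet orange identifiers.

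Regulators of transcription and of the cell cycle accounted for 3 named members. Cs3g02020, matched to a putative Myb family transcription factor of Arabidopsis thaliana, had 24.996, 34.5 and 46.8 RPKM in WT1 to WT3, and 19.0, 5.05 and 2.87 RPKM in MT3, MT1 and MT2. MT3 lay below the lowest WT library, and MT1 and MT2 lay further below. The WT mean was 35.4 ± 10.9 RPKM (SD, n = 3) and the MT mean 8.96 ± 8.73 RPKM, a ratio of 3.95, which became 2.95 without MT2 and 8.94 without MT3. Myb proteins bind DNA and control many processes in plants. Cs3g02020 was not assigned to a branch of that family here, and what it controls was not tested. It was the only member with a qRT-PCR primer pair in the study's oligonucleotide list, and the pair is shown because it marks the transcript that was also assayed outside the sequencing; both oligos are written 5′ to 3′ and no base is capitalised.
Cs3g02020 forward primer: tctcactacctcatccttcttcaca
Cs3g02020 reverse primer: tcggcgccaatgtcact
The forward primer has 25 bases and the reverse primer 17. The qRT-PCR measurements are not analysed here.

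Cs7g21700 matched SMR3, a cyclin-dependent kinase inhibitor of the SIAMESE-related family that restrains cell division in Arabidopsis. It stood at 16.4, 11.2 and 18.1 RPKM in WT1 to WT3 and at 9.07, 3.66 and 1.90 RPKM in MT3, MT1 and MT2. The highest MT value was close to the lowest WT value, and the ratio of means was 3.12. Cs5g02490, matched to the High mobility group B protein 13, a DNA-bending chromatin protein, was the least abundant member in WT. Its values were 6.45, 5.45 and 4.94 RPKM in WT1 to WT3, and 3.89, 2.66 and 1.22 RPKM in MT3, MT1 and MT2, with the largest step from MT1 to MT2.

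Hormone and peptide signalling was represented by Cs1g22140 and Cs1g21040. Cs1g22140 matched GH3.1, an indole-3-acetic acid-amido synthetase, which links auxin to amino acids and so lowers free auxin. It had 124, 70.8 and 99.2 RPKM in WT1 to WT3, and 49.8, 14.5 and 8.83 RPKM in MT3, MT1 and MT2. The fall from MT3 to MT1 was the largest of its steps. Its means were 98.1 ± 26.7 RPKM in WT and 24.4 ± 22.2 RPKM in MT, a ratio of 4.02 that became 3.05 without MT2 and 8.40 without MT3. Cs1g21040 matched HSL2, a leucine-rich repeat receptor kinase that perceives the abscission peptide in Arabidopsis. It was even in WT, at 5.94, 6.06 and 6.48 RPKM, and stood at 3.55, 2.67 and 1.101 RPKM in MT3, MT1 and MT2.

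Enzymes of phenylpropanoid and related small molecules differed widely in the size of their falls. Cs3g11760 matched 3-oxo-Delta(4,5)-steroid 5-beta-reductase, an enzyme that reduces enone groups of steroids and related compounds. It had 124, 112 and 78.7 RPKM in WT1 to WT3 but 15.2, 5.40 and 3.31 RPKM in MT3, MT1 and MT2. Unlike most members it was already low in MT3, and the ratio of means was 13.2, or 10.2 without MT2 and 24.1 without MT3. Cs1g05810 matched shikimate O-hydroxycinnamoyltransferase, which carries hydroxycinnamoyl units in the path to lignin monomers and chlorogenic acid. It was tight in WT, at 41.7, 36.2 and 38.5 RPKM, and graded in MT, at 26.0, 9.41 and 1.05 RPKM in MT3, MT1 and MT2. Its lowest WT value was 34.6 times MT2, the highest such ratio of any member, and MT2 rested on 17 reads with an exact Poisson 95% interval of 0.61 to 1.67 RPKM, which covers counting error only. Cs7g06040 matched a glycinol prenyltransferase of soybean phytoalexin synthesis. It was a low gene, with 7.04, 6.34 and 9.91 RPKM in WT1 to WT3 and 4.80, 3.45 and 1.36 RPKM in MT3, MT1 and MT2.

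Lipid metabolism contributed a pair of endoplasmic reticulum proteins. orange1.1t02024 matched the omega-6 fatty acid desaturase isozyme 2, which turns oleate into linoleate. Its values were 27.9, 19.3 and 34.6 RPKM in WT1 to WT3, and 7.99, 5.49 and 3.68 RPKM in MT3, MT1 and MT2. All MT libraries lay close together and well below WT, and its MT3 was 2.17 times MT2, the smallest such ratio among members. Cs3g15770 matched cytochrome B5 isoform D, a haem protein that hands electrons to desaturases and hydroxylases. It had 17.6, 9.89 and 18.7 RPKM in WT1 to WT3, and 7.11, 5.04 and 2.41 RPKM in MT3, MT1 and MT2. Outside the lists, Cs4g10710 matched a bovine transmembrane protein 189, with 33.7, 33.6 and 50.1 RPKM in WT1 to WT3 and 25.7, 11.6 and 7.56 RPKM in MT3, MT1 and MT2.

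Transport was represented by Cs3g14550 and Cs6g07780, and their MT profiles differed. Cs3g14550 matched SWEET16 of rice, a bidirectional sugar transporter. It had 82.7, 85.4 and 107 RPKM in WT1 to WT3, kept 60.9 RPKM in MT3 and 51.1 RPKM in MT1, and dropped to 7.09 RPKM in MT2. Its ratio of means was 2.31, and 1.64 without MT2. Cs6g07780 matched the peptide transporter PTR5, which imports di- and tripeptides. It had 19.8, 33.7 and 19.6 RPKM in WT1 to WT3, and 9.15, 3.51 and 3.31 RPKM in MT3, MT1 and MT2. Here MT1 and MT2 were nearly equal, and their counting intervals overlapped.

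Cell wall and amino acid metabolism gave the last 3 named members. Cs7g09680 matched an endoglucanase of a bacterium, an enzyme class that cuts glucan chains. It stood at 62.5, 58.8 and 78.1 RPKM in WT1 to WT3 and at 44.9, 31.3 and 7.80 RPKM in MT3, MT1 and MT2. Cs7g04860 matched a putative EG45-like domain protein, a class related to expansins. It had 56.3, 30.0 and 41.5 RPKM in WT1 to WT3, 24.98 RPKM in MT3 and nearly equal values of 9.11 and 7.50 RPKM in MT1 and MT2. Cs7g07120 matched sarcosine oxidase, which strips the methyl group from N-methylated amino acids. It had 64.0, 50.7 and 68.4 RPKM in WT1 to WT3, and 46.3, 16.6 and 9.05 RPKM in MT3, MT1 and MT2.

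**Figure D2:**
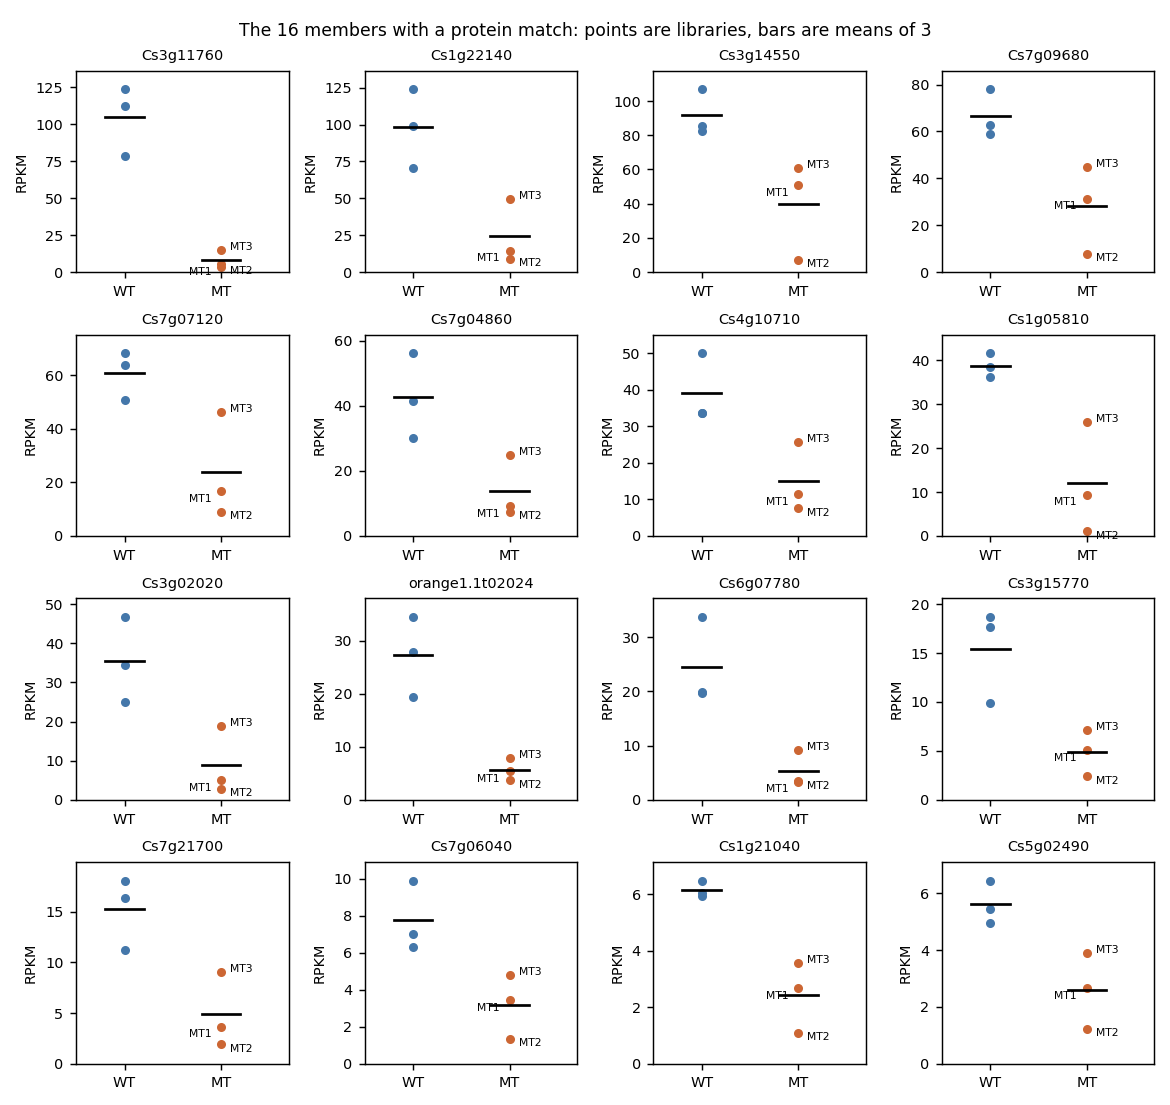
RPKM of the 16 members with a protein match, 1 panel a gene with its own linear axis from 0, points for the 3 WT (blue) and 3 MT (orange) libraries and bars for group means. In every panel, as the selection required, the MT points lie below the WT points in the order MT3, MT1, MT2, and Cs3g11760 shows the widest gap, with means of 105 and 7.96 RPKM.

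The most abundant members had no name. Cs2g18570 had the highest WT mean, 622 ± 245 RPKM, from 847, 361 and 658 RPKM, and stood at 284, 248 and 53.9 RPKM in MT3, MT1 and MT2. Cs2g09850 followed with 534, 395 and 410 RPKM in WT and 377, 360 and 83.4 RPKM in MT3, MT1 and MT2. For both, MT3 and MT1 were close to each other and MT2 alone was far lower. Without MT2, the ratio of WT to MT means was 2.34 for Cs2g18570 and only 1.21 for Cs2g09850.

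Cs1g04910 and Cs5g03440 had the same shape. Cs1g04910 had 451, 333 and 469 RPKM in WT1 to WT3, and 303, 262 and 56.4 RPKM in MT3, MT1 and MT2. Cs5g03440 had 321, 318 and 383 RPKM in WT1 to WT3, and 281, 233 and 70.1 RPKM in MT3, MT1 and MT2. Cs1g02750 differed from these, since its MT1 was already low: it had 343, 225 and 275 RPKM in WT1 to WT3, and 222, 64.3 and 17.3 RPKM in MT3, MT1 and MT2.

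A pair of contrasting unnamed genes lay among those with the widest span from WT to MT2. Cs5g13970 had 25.3, 25.6 and 64.4 RPKM in WT1 to WT3 and 15.0, 3.83 and 1.23 RPKM in MT3, MT1 and MT2, with WT3 far above the other WT libraries. Cs5g06920 had 20.6, 31.5 and 30.4 RPKM in WT1 to WT3 and 8.001, 4.14 and 1.53 RPKM in MT3, MT1 and MT2, and all of its MT values lay well below WT. In total, 9 members had a WT mean of at least 100 RPKM and 13 a WT mean under 20 RPKM.

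The remaining unnamed members repeated these shapes at other levels. orange1.1t02015 (WT mean 195 RPKM), Cs5g01440 (154 RPKM) and Cs4g03330 (139 RPKM) were the other abundant ones. Cs4g03330 was even in WT, at 132, 139 and 148 RPKM, and kept 122.8 RPKM in MT3 before falling to 36.8 RPKM in MT1 and 22.4 RPKM in MT2. Cs9g02570 and Cs1g24445 instead kept MT3 and MT1 at near-equal levels, with 67.2 and 66.4 RPKM and with 40.6 and 38.0 RPKM, and fell to 9.95 and 6.89 RPKM in MT2. Cs9g01660 had 66.3, 53.7 and 16.8 RPKM in MT3, MT1 and MT2. orange1.1t02036 had the widest spread in WT, 30.8, 78.1 and 131 RPKM, a ratio of 4.26 between the highest and the lowest. Cs3g05115, orange1.1t02914, Cs7g06430, Cs9g16640, Cs2g03820, Cs3g16960 and Cs6g03950 had WT means from 26.3 to 58.9 RPKM. At the low end were orange1.1t04609, Cs3g16570, Cs6g19170, Cs2g04870, Cs9g14100, orange1.1t02075, Cs8g15600 and Cs8g01230, with WT means from 6.05 to 17.3 RPKM.

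Some of these genes show how little MT3 could differ from WT while MT2 was far lower. Cs1g02750 above, Cs6g03950 and Cs8g15600 are of this kind. Cs6g03950 had 27.5, 22.9 and 28.4 RPKM in WT1 to WT3, and 22.7, 10.2 and 5.63 RPKM in MT3, MT1 and MT2. Cs8g15600 had 6.86, 6.78 and 6.14 RPKM in WT1 to WT3, and 6.07, 2.40 and 1.45 RPKM in MT3, MT1 and MT2. In both, MT3 lay directly under the lowest WT library, so a small change in either value would have moved the gene out of the set. The reverse held for orange1.1t04609, which had 19.1, 15.7 and 17.2 RPKM in WT1 to WT3 and had already dropped to 7.57 RPKM in MT3, with 3.68 RPKM in MT1 and 2.21 RPKM in MT2.

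The fall from the lowest WT library to MT2 divides into 3 steps, and members differed in where the largest lay. It was the step from MT1 to MT2 in 26 members, from MT3 to MT1 in 16 and from WT to MT3 in 3. The median ratios were 1.23 for lowest WT to MT3 (1.002 to 5.19), 1.93 for MT3 to MT1 (1.01 to 3.999) and 2.42 for MT1 to MT2 (1.06 to 9.0005). Several steps were thin. The lowest WT value was under 1.1 times MT3 in 16 members and at least 2 times MT3 in 5. MT3 was under 1.2 times MT1 in 6 members, and MT1 under 1.2 times MT2 in 2, with these limits set after the values were known. The median of MT3 over MT1 was 1.59 in members with a WT mean of at least 100 RPKM and 1.99 in the others.

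**Figure D3:**
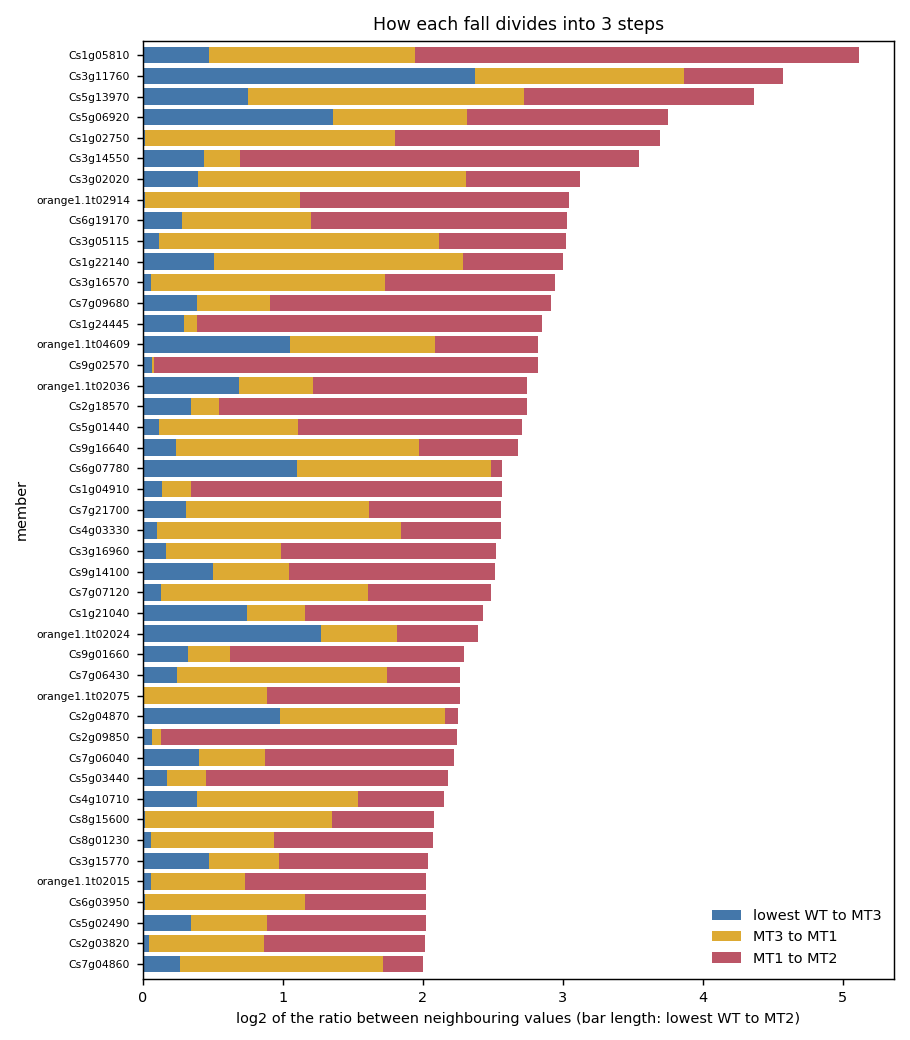
Log2 ratio from the lowest WT library to MT2 for each member, split into the steps lowest WT to MT3 (blue), MT3 to MT1 (yellow) and MT1 to MT2 (red). Cs1g05810 has the longest bar, a ratio of 34.6, and the red step is the largest in 26 of the 45 members.

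Reads behind the values set how far each step could be resolved. Members had 3 to 1583 reads in MT2 (median 58), 6 to 5905 in MT1 (median 172) and 12 to 6291 in MT3 (median 286). Exact Poisson 95% intervals of MT3 and MT1 overlapped in 12 members, and those of MT1 and MT2 in 13. These counts compare separate intervals, and the reads of the libraries were not tested against each other. Cs6g19170, the shortest member at 258 bases of exon model, rested on 3 reads in MT2, and Cs2g04870 on 5 reads in MT2 and 6 in MT1. Exon model lengths of members ran from 258 to 3310 bases with a median of 1624, against 1729 over the genes tested.

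The spread among WT libraries within members was also measured. The highest WT value was a median of 1.53 times the lowest (1.07 to 4.26), against 1.32 over the 13264 genes with at least 1 RPKM in every library, and it was at least 2 times the lowest in 7 members. WT2 was the lowest WT library in 23 members, WT1 in 14 and WT3 in 8. Among the 13264 genes these shares were 49.3%, 23.4% and 27.3%, so WT2 was also commonly lowest at large.

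Genes just inside and outside the limits had like profiles. On the limit of 4 times MT2, the nearest inside were Cs7g04860 (4.001), Cs2g03820 (4.05) and Cs5g02490 (4.06). The nearest outside, of 60 genes that missed this limit alone, were Cs2g09840 (3.93), Cs6g16000 (3.83), matched to the clock protein CCA1, and Cs2g14980 (3.82). On the limit of 2 for MT3 over MT2, the nearest inside were orange1.1t02024 (2.17), Cs2g04870 (2.42) and Cs6g07780 (2.77), and the only gene outside was Cs4g18790 (1.59), a vacuolar-processing enzyme.

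The order MT3 > MT1 > MT2 was common among lower genes in general. With the same limits on size and level but any order of the MT libraries, 67 genes qualified: 48 in this order (71.6%), 10 as MT1 > MT3 > MT2, 5 as MT3 > MT2 > MT1, 3 as MT2 > MT1 > MT3, 1 as MT1 > MT2 > MT3 and 0 as MT2 > MT3 > MT1. Without size limits, 896 genes lay lower in every MT than in every WT library. This order was held by 391 of them (43.6%), and 154 (17.2%) and 145 (16.2%) held the next most frequent orders. The median percents of the WT mean over the 896 genes were 69.7% in MT3, 59.5% in MT1 and 50.9% in MT2. At the median, members thus stood close to this wider set in MT3 and below it in MT1 and MT2. Their limits required a low MT2 but placed MT1 only between MT2 and MT3.

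**Figure D4:**
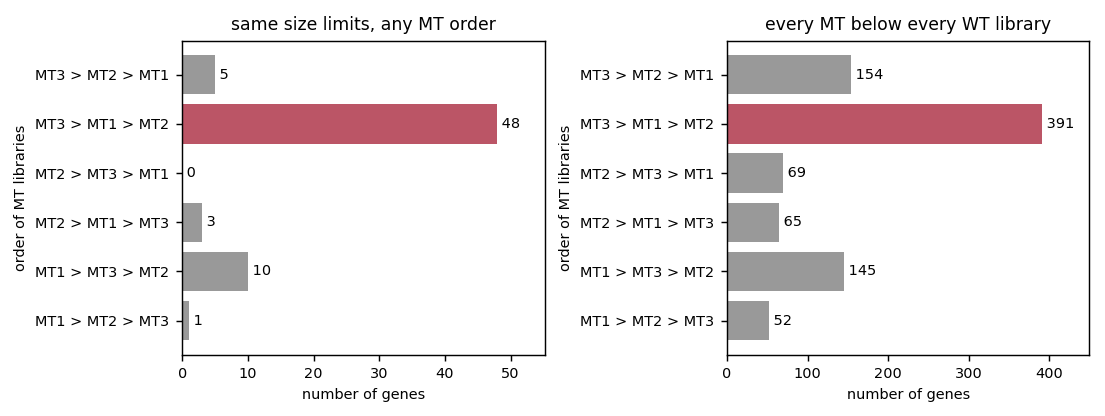
Number of genes in each order of the MT libraries, left for the same limits on size and level and right for all genes lower in every MT than in every WT library. The order MT3 > MT1 > MT2 (red) holds 48 of 67 genes on the left and 391 of 896 on the right, the most of any order in both.

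Genes numbered next to members were measured without having been selected. The numbers in sweet orange identifiers were taken to follow position along a chromosome, and 459 genes that are not members lay within 5 gene numbers of a member, of which 296 were tested. Of these, 22 (7.43%) were lower in every MT than in every WT library, against 5.10% of all tested genes that are not members, the neighbours included. The order MT3 > MT1 > MT2 was held by 14 of the 22. It was held by 391 (43.6%) of all 896 genes lower in this sense, members and neighbours included, and the difference was not tested. With limma (two-sided, Benjamini-Hochberg adjusted p under 0.05 over all genes tested), 0 neighbours were lower and 0 higher, where 0.0179% of all genes tested were called lower. At an unadjusted p under 0.05, 22 neighbours (7.43%) were lower and 42 (14.2%) higher, against 4.93% lower and 16.9% higher of all genes tested. Without MT3 the share of lower neighbours was 19.9%, against 13.6% of all tested genes that are not members, and without WT2 it was 15.5%, against 12.9%.

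Neighbours with large falls lay beside several members. Apart from those described below, log2 differences were −2.29 for Cs9g16620, −1.95 for Cs5g13940 and −1.94 for Cs3g14580. They were −1.82 for Cs1g05770 and −1.67 for Cs3g15740. Only Cs5g13940 of these was lower in every MT than in every WT library, and none had a limma adjusted p under 0.05. Cs9g16630, next to Cs9g16640, had 14.7, 9.94 and 18.2 RPKM in WT1 to WT3, and 4.29, 1.196 and 0.42 RPKM in MT3, MT1 and MT2, a log2 difference of −2.87 (limma adjusted p = 0.0864). Its neighbour Cs9g16640 had 28.4, 52.3 and 23.2 RPKM in WT1 to WT3, and 19.6, 5.90 and 3.61 RPKM in MT3, MT1 and MT2, so both genes were graded, although WT2 was the highest WT library for 1 and the lowest for the other. Cs5g13980, next to Cs5g13970 and matched to a cytochrome P450 71A1, had 7.52, 7.35 and 12.1 RPKM in WT1 to WT3, and 4.15, 0.70 and 0.29 RPKM in MT3, MT1 and MT2 (limma adjusted p = 0.114). WT3 was the highest WT library for both genes of that pair.

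Cs2g09840, next to Cs2g09850, held the same order. It had 303, 208 and 224 RPKM in WT1 to WT3, and 205, 197 and 53.0 RPKM in MT3, MT1 and MT2. MT3 and MT1 lay just below WT2, and MT2 alone was far lower. The log2 difference was −0.90 (limma adjusted p = 0.329). Cs7g06090, near the prenyltransferase Cs7g06040 and itself matched to a naringenin prenyltransferase, had a limma adjusted p of 0.0679 at a log2 difference of −1.62. It had 2.75, 3.38 and 2.20 RPKM in WT1 to WT3, and 0.90, 0.39 and 0.44 RPKM in MT3, MT1 and MT2. MT1 lay below MT2, and at such low values the log2 difference depends on the pseudocount of 0.5. Cs7g06030 and Cs7g06080, nearer to Cs7g06040, went the other way. Their log2 differences were 3.73 (limma adjusted p = 0.0982), the highest of any tested neighbour, and 2.05 (limma adjusted p = 0.164). Cs7g06030 had at most 0.26 RPKM in any WT library, so its log2 difference depends on the pseudocount of 0.5. Cs7g06000 and Cs7g06010, also nearer, differed little, at 0.02 and 0.14. Another neighbour with a higher value was Cs1g21050, next to Cs1g21040, at a log2 difference of 2.85 (limma adjusted p = 0.0532). None of them passed the threshold. These neighbours were singled out after their values were seen. No member lay within 5 gene numbers of another, and the closest were orange1.1t02015 and orange1.1t02024, 9 numbers apart, both on unplaced sequence, where the order of the numbers is less certain. Members were spread over all 9 chromosomes, from 2 on chromosomes 4 and 8 to 7 on chromosome 3, with 6 on unplaced sequence.

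**Figure D5:**
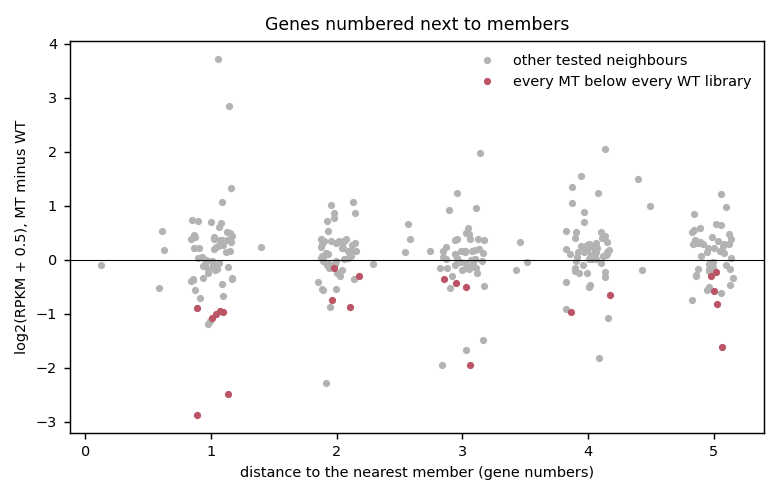
Difference in log2(RPKM + 0.5), MT minus WT, of the 296 tested neighbours against their distance from the nearest member in gene numbers, with points shifted sideways at random to separate them. Red points are the 22 neighbours lower in every MT than in every WT library, and the lowest, at −2.87, lies 1 number from a member.

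Outside the members, the profile most like their mean over the 6 libraries belonged to orange1.1t03425, matched to the glucose-6-phosphate/phosphate translocator 2 of plastids (Pearson's r = 0.999 on log2 values over 6 libraries). It had 181, 174 and 182 RPKM in WT1 to WT3, and 137, 99.5 and 66.4 RPKM in MT3, MT1 and MT2. Its lowest WT value was 2.62 times MT2, below the limit of 4. The unnamed Cs6g13180 (r = 0.999) and orange1.1t00216 (r = 0.998) came next, and these likenesses are descriptions over libraries that share their genotype split.

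The study's list also shows how members sat among genes of like function, as sorted by keyword. Its genes were chosen for differing in these libraries, and over all 227 named genes tested 114 (50.2%) were lower and 107 (47.1%) higher with no overlap between genotypes. Of 24 tested genes sorted as transcription factors and nuclear regulators, 14 were lower and 10 higher in this sense, and 2 were members. The keywords missed some transcription factors, MYB44, MYB86 and bHLH25 among them, so this list is not complete. Of 25 transporters and channels, 14 were lower and 10 higher, with 2 members. Of 22 phenylpropanoid, flavonoid and terpenoid enzymes, 15 were lower and 5 higher, with 2 members. Of 19 genes of lipid, wax and cutin metabolism, 11 were lower and 8 higher, with 2 members. The 8 hormone genes had 6 lower, 2 higher and 2 members. The 13 cell wall and sugar genes had 7 lower, 6 higher and 2 members.

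The 13 genes of glycosyl and acyl conjugation had 7 lower, 4 higher and 1 member, the 8 of amino acid metabolism 6 lower, 2 higher and 1 member, and the 14 kinases and signalling genes 6 lower, 8 higher and 1 member. Lists without a member were defence and stress proteins (5 of 21 lower, 15 higher), plastid and pigment turnover (5 of 6 lower, 1 higher), and proteases and phosphatases (4 of 6 lower, 2 higher). Median log2 differences over these lists ran from −1.46 for hormone genes to 1.30 for defence proteins, beside 0.15 for all genes tested. The 48 named genes that fell in no list had 14 lower, 34 higher and 1 member, with a median log2 difference of 1.54. Over the 227 named genes, limma called 3 lower and 2 higher.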

How the data were processed

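The deposited values are RPKM, which the authors computed from uniquely mapped 100 bp reads on sweet orange gene models, 1 value per gene and library, with no stated scaling between libraries. The submitters' processing notes name Bowtie2 2.1.0. The paper instead describes a genome index from another Bowtie version and alignment with TopHat, which takes splice junctions into account. All 6 columns were used (0 left unused). The spacing of the RPKM values gave back library totals, exon model lengths and whole reads, and exact Poisson 95% intervals on those reads cover counting error only.

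The members, lists and tests were chosen with earlier results of these data known. Members were found by the limits given above. For genes that are not members, log2(RPKM + 0.5) of the 16719 genes averaging at least 0.3 RPKM entered limma 3.58.1 (R 4.3.3; intensity trend, no block, Benjamini-Hochberg at 0.05). The test was run on the log scale because the table holds RPKM. Whole reads were worked out from it, but no count model was fitted to them here. The study's list, of which 291 rows were used, came from the paper's own count model of these libraries. The limma fit called only 3 genes lower and 3 higher of 16719, so its few calls do not show that few genes differ. Why the calls differ was not tested. The limma fit was first tested on simulated data in which 200 genes had been changed. There the change was even over libraries and the spread equal in both groups. The MT libraries were graded and more spread, so the simulation cannot show how the fit performs on them. Named genes were those with a protein match (291 rows of the study's list used), the 5 highest in WT, the 5 at either end of the ratio of lowest WT to MT2, those nearest each limit, and the 3 genes most alike in profile. The named rows were sorted by keyword into 12 lists. Other steps ran in Python 3.11.15 (numpy 2.4.6, pandas 2.3.3, scipy 1.17.1, matplotlib 3.10.9). The alternatives were other pseudocounts, filters, limits, windows and scalings, a replicate block, and leaving out each library.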

Additional observations from a re-analysis of the deposited data

How the results depend on the processing

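The 45 members became 28 with a minimum of 3 RPKM and 20 with ratio limits of 3 and 6, and 52 to 75 when a WT library was left out (75 without WT2). The rule needs all MT libraries, so none of these was left out for it. Median-ratio rescaling gave 58 genes, 42 of them shared, and moved the median log2 difference of all genes from 0.15 to 0.03 and that of members from −1.63 to −1.76. The members' median ran from −2.25 (without MT3) to −1.09 (without MT2) over the libraries left out. The 3 genes that limma called lower became 5 with a pseudocount of 0.1, 5 with a mean of at least 3 RPKM, 6 after median-ratio rescaling, 7 without the trend, 90 at an adjusted p of 0.1 and 31 with a replicate block. Same-numbered libraries did not deviate together in every pair (r = −0.05, 0.19 and 0.16), 4 of 6 libraries correlated best with their own number, and the numbers were not taken as pairs. With a library left out, the count ran from 0 to 314: 314 without MT3, and 0 by limma without WT1, WT2 or WT3, where 565, 828 and 424 were lower at an unadjusted p under 0.05. The 22 lower neighbours of 296 tested became 11 of 124 within 2 gene numbers and 37 of 567 within 10. After median-ratio rescaling there were 40 (13.5% against 11.3% of all tested genes that are not members). Leaving out a library gave from 27 (without WT1, 9.12% against 7.22%) to 59 (without MT3, 19.9% against 13.6%). Without WT2 there were 46 (15.5% against 12.9%). With the block, limma called 2 of the 296 tested neighbours lower and 3 higher, against 31 lower and 91 higher of all 16719 genes tested. Depth limits members with few reads in MT2. The causes of these shifts were not tested.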
